A study of Mus musculus with 6 samples.

Results

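The 42 genes described here encode the machinery that licenses and copies DNA in S phase, the part of the cell cycle in which the genome is duplicated. They were chosen by gene symbol from a table of 47480 genes, and all 42 were found in it. The cells were primary chondrocytes, the matrix-producing cells of cartilage, from neonatal mice. One group, A2ARKO, carried a global knockout of the adenosine receptor encoded by Adora2a on a C57BL/6 background. The other, WT, was C57BL/6 kept in the same facility. RNA of trypsinized cells was pooled over a whole litter and sequenced, with 3 litter pools per genotype, so p-values measure the spread between pools. The study asked which pathways may drive osteoarthritis, in which cartilage is lost. The labels give no allele, exact age, sex, time in culture or batch, and the knockout was in all cells of the animals, not in chondrocytes alone. Values are the authors' FPKM, fragments scaled by gene length and by the total of the library, which allows levels to be set side by side between genes.

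Before S phase, the origin recognition complex, Cdc6 and Cdt1 load the ring-shaped MCM helicase onto origins, and geminin (Gmnn) blocks Cdt1 once replication has begun. The kinase Cdc7 with Dbf4 and cyclin E with Cdk2 then start the helicase through Cdc45 and the GINS complex, and polymerases with the sliding clamp Pcna copy both strands. Many of these genes are targets of E2F transcription factors, which the retinoblastoma protein holds in check in resting cells. Growth plate chondrocytes proliferate before they mature, and chondrocytes grown in a dish often divide while they lose cartilage matrix expression.

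Promoter windows from the RefSeq table (build GRCm38.p6, 250 bases before to 50 after the annotated start) show a sequence feature that the choice of genes did not use. The motif searched as E2F type was TTTCCCGC, TTTCGCGC, TTTGCCGC or TTTGGCGC on either strand, and matches may overlap. The 4 windows printed belong to the genes called higher in A2ARKO whose window holds a match, with the matches in capitals. They are 5′ to 3′ on the strand of the gene.
Mcm5, chr8:75109259-75109558, plus strand: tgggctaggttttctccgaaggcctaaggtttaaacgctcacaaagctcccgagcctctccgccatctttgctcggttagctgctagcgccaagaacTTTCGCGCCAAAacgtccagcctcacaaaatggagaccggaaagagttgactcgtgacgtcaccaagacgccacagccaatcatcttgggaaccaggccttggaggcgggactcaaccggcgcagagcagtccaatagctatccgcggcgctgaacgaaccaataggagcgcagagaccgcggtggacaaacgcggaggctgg
Cdc6, chr11:98907901-98908200, plus strand: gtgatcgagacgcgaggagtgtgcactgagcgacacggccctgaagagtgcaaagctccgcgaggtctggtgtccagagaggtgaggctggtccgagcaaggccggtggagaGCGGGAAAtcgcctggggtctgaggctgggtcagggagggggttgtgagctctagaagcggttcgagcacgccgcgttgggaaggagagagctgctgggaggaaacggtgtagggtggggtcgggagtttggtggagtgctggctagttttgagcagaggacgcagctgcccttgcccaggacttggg
Mcm7, chr5:138171834-138172133, minus strand: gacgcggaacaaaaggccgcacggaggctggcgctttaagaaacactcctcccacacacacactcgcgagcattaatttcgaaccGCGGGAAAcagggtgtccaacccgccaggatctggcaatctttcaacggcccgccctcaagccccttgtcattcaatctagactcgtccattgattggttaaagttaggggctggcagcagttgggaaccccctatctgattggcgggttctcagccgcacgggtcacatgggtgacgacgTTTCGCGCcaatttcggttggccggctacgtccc
Cdc25a, chr9:109875329-109875628, plus strand: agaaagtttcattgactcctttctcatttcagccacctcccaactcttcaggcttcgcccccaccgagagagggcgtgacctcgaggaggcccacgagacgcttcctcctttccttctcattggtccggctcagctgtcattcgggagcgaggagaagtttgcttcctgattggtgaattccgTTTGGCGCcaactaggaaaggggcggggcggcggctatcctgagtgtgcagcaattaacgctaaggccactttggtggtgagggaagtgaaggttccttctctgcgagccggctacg

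In the Mcm5 window 2 matches on opposite strands overlapped as TTTCGCGCCAAA, starting 153 bases before the RefSeq start. The GENCODE M21 annotation begins Mcm5 just beyond this window. Mcm7 had matches 165 bases before and 16 bases after its RefSeq start. GENCODE places the whole Mcm7 window in exons of Mcm7, and 132 of its bases also in exons of Ap4m1 on the opposite strand. In Cdc6 the match lay 138 bases before the RefSeq start, and GENCODE, which starts the gene further upstream, puts 131 bases of the window in exons and 169 in introns. The Cdc25a match lay 67 bases before the start, and only the last 50 bases of the window are exonic. Of the 42 genes, 34 had an entry in the RefSeq table. An E2F-type match was present for 17 of the 34 (50%), against 704 of 27025 genes (2.6%) over the whole table and 425 of 8734 tested genes (4.87%) with an entry. No test was made, since the genes were chosen with results known. A match was present for 4 of 9 called genes (44.4%) and for 12 of 24 tested genes that were not called (50%). The remaining gene with a match was E2f2. Letters of the cell cycle homology region type (TTTGAA or TTCGAA, either strand) were in the windows of 10 of 34 genes (29.4%). The share was 21.7% of genes in the table and 15.9% of tested genes with an entry. CCAAT, on either strand, was in 21 of the 34 (61.8%), against 41.1% in the table and 42.9% of tested genes. Gmnn, Mcm4, Gins1, Gins2, Gins4, Rfc2, Pole and Ccne2 had no entry.

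**Figure D1:**
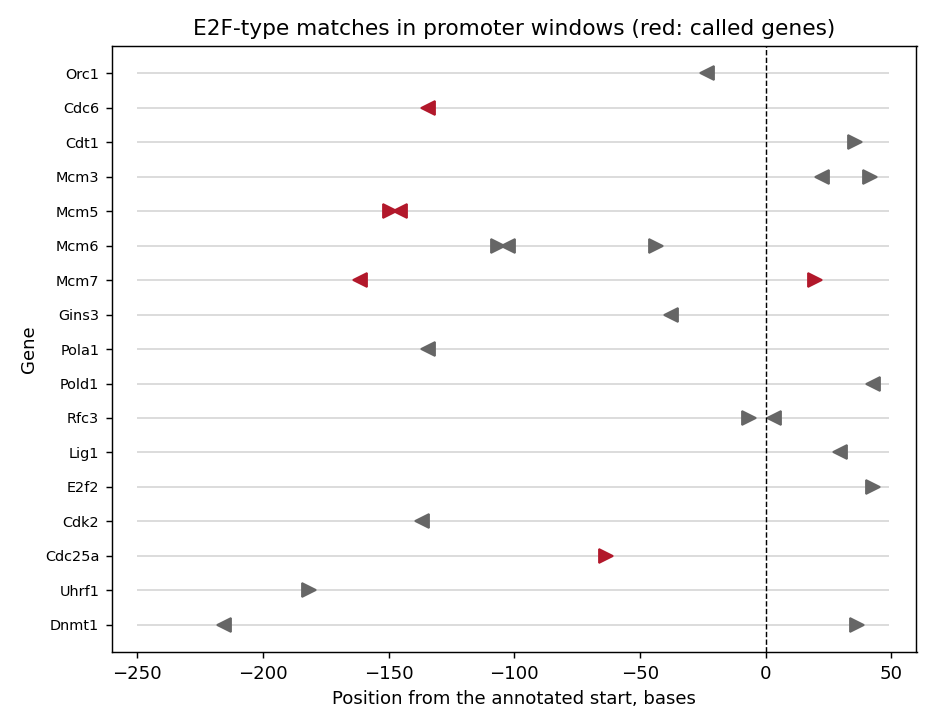
Positions of E2F-type matches in the RefSeq promoter windows of the 17 genes that hold one, in bases from the annotated start (dashed line). Arrowheads give the strand, red marks genes called higher in A2ARKO and grey the others, and windows of a gene with several starts share a line. The 24 matches begin between 219 bases before and 39 bases after the start.

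The libraries differed in more than genotype. The size of 1 read, read off the lowest values, put the depth at 41.3 to 58.0 M reads per library (M, mega). Reads of that size summed over genes came to 51.4 to 64.8 M, in every library above the depth from the lowest values. The estimates differed most for WT replicate 1, at 41.3 M and 58.7 M, so depth and read counts are rough. Adora2a, the gene of the deleted receptor, had 0.41, 0.54 and 0.66 FPKM in A2ARKO against 9.36, 7.31 and 3.46 FPKM in WT replicates 1, 2 and 3. All 12 chondrocyte markers found in the table reached 1 FPKM in at least 1 library. Their summed level was 2239, 4485 and 6279 FPKM in A2ARKO replicates 1, 2 and 3, and 25562, 1337 and 487.5 FPKM in WT replicates 1, 2 and 3. WT replicate 1 thus stood apart by its cartilage genes, with 18662 FPKM of the cartilage collagen gene Col2a1. WT replicate 2 stood apart by markers of other cells. Macrophage and leukocyte markers, all 13 of which reached 1 FPKM in some library, summed to 25.9 to 51.04 FPKM in A2ARKO and to 179, 1876 and 131 FPKM in WT. Skeletal muscle markers summed to 8.03 to 25.3 FPKM in A2ARKO and to 5.55, 834.5 and 14.1 FPKM in WT. Erythroid markers stayed at 0.13 FPKM or less in every library, 3 of 8 at 0. Fibroblast markers, all 8 at 1 FPKM or more in some library, summed to 4702, 3229 and 3476 FPKM in A2ARKO and to 9169, 7397 and 6634 FPKM in WT, so that every A2ARKO pool lay below every WT pool. The collagen genes Col1a1, Col1a2 and Col3a1 of that list made up most of each of these sums. Each was lower in all A2ARKO pools than in any WT pool, a pattern that 14.9% of all genes tested showed. None of these collagen genes passed the test (limma adjusted p of 0.121, 0.0694 and 0.181). For Pdgfra, Dcn, Thy1, Fap and Postn, also of that list, the groups overlapped. Means of Fap and Postn were lower in A2ARKO, and those of Pdgfra and Thy1 were close to WT. Dcn had the higher mean in A2ARKO, 696.3 FPKM against 302.3 FPKM in WT. Osteoblast markers, all 6 at 1 FPKM or more in some library, summed to 1059, 2605 and 4074 FPKM in A2ARKO and to 1297, 1063 and 212.3 FPKM in WT. Spp1 made up most of each of these sums. The rest of that list, Runx2, Sp7, Bglap, Ibsp and Alpl, was highest in WT replicate 1 for each gene. Ibsp, for example, had 330.04 FPKM there and 2.51, 11.36 and 17.69 FPKM in A2ARKO. Endothelial markers, of which 1 of 6 reached 1 FPKM, summed to 1.62 to 2 FPKM in A2ARKO and to 1.23, 3.68 and 3.83 FPKM in WT. The part of these cell types in the results was not tested. In such bulk samples, fewer cells in S phase and less RNA of these genes per cell cannot be told apart.

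In every role group but the polymerases at least 1 gene rose in A2ARKO relative to WT chondrocytes. Of the 42 genes, 41 had 1 FPKM or more in at least 3 libraries and were tested, and 39 of the 42 reached 1 FPKM in every library. The exceptions were Orc1, Mcm10 and E2f2, the last of which was below the filter. With limma (adjusted p below 0.05 by Benjamini-Hochberg over all 11595 genes tested), 9 of the 41 rose, 0 fell and 32 did not pass. Over all genes tested 3.31% rose and 1.77% fell. An unadjusted p below 0.05 with a higher level in A2ARKO was reached by 32 of the 41, and by 14.3% of all genes tested. Those that rose were Cdc45, Mcm5, Ccne1, Fen1, Cdc6, Mcm10, Chaf1a, Mcm7 and Cdc25a. All 41 log2 fold changes (A2ARKO minus WT, of FPKM + 1) were above 0, from 0.16 to 1.06 with a median of 0.55, where the median of all genes tested was 0.00 and 50.4% lay above 0. For 35 of the 41 every A2ARKO library lay above every WT library, a pattern that 18% of all genes tested showed.

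These counts depend on the libraries in the fit, and so do the counts over all genes. WT replicate 1 had the lowest value of all 6 libraries in 40 of the 41 genes (2850 of all 11595 tested), and an A2ARKO library the highest in 40. The A2ARKO pools lay close together, with a median SD of 0.0599 on the log2(FPKM + 1) scale against 0.315 in WT, where over all genes the medians were 0.0967 and 0.192. WT exceeded A2ARKO in spread for 39 of the 41 genes, and for 9146 of all 11595 genes tested. The number called was 12 without WT replicate 1, 2 without WT replicate 2, 16 without WT replicate 3, and 0 without A2ARKO replicate 1, 2 or 3, where 25, 21 and 22 genes kept an unadjusted limma p below 0.05. The median log2 fold change was 0.40, 0.61 and 0.70 without WT replicates 1, 2 and 3 and 0.55 to 0.56 without an A2ARKO library. Rescaling the libraries to the same FPKM sum moved the median of all genes by -0.10, and no gene of the 41 was then called by limma. An unadjusted limma p below 0.05 was kept by 15 of the 41, against 2406 of all 11595 in either direction. Relative to the shift of all genes the median of the 41 stood 0.56 higher. With no filter, and so 26442 genes tested, Cdc45 alone was called.

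**Figure D2:**
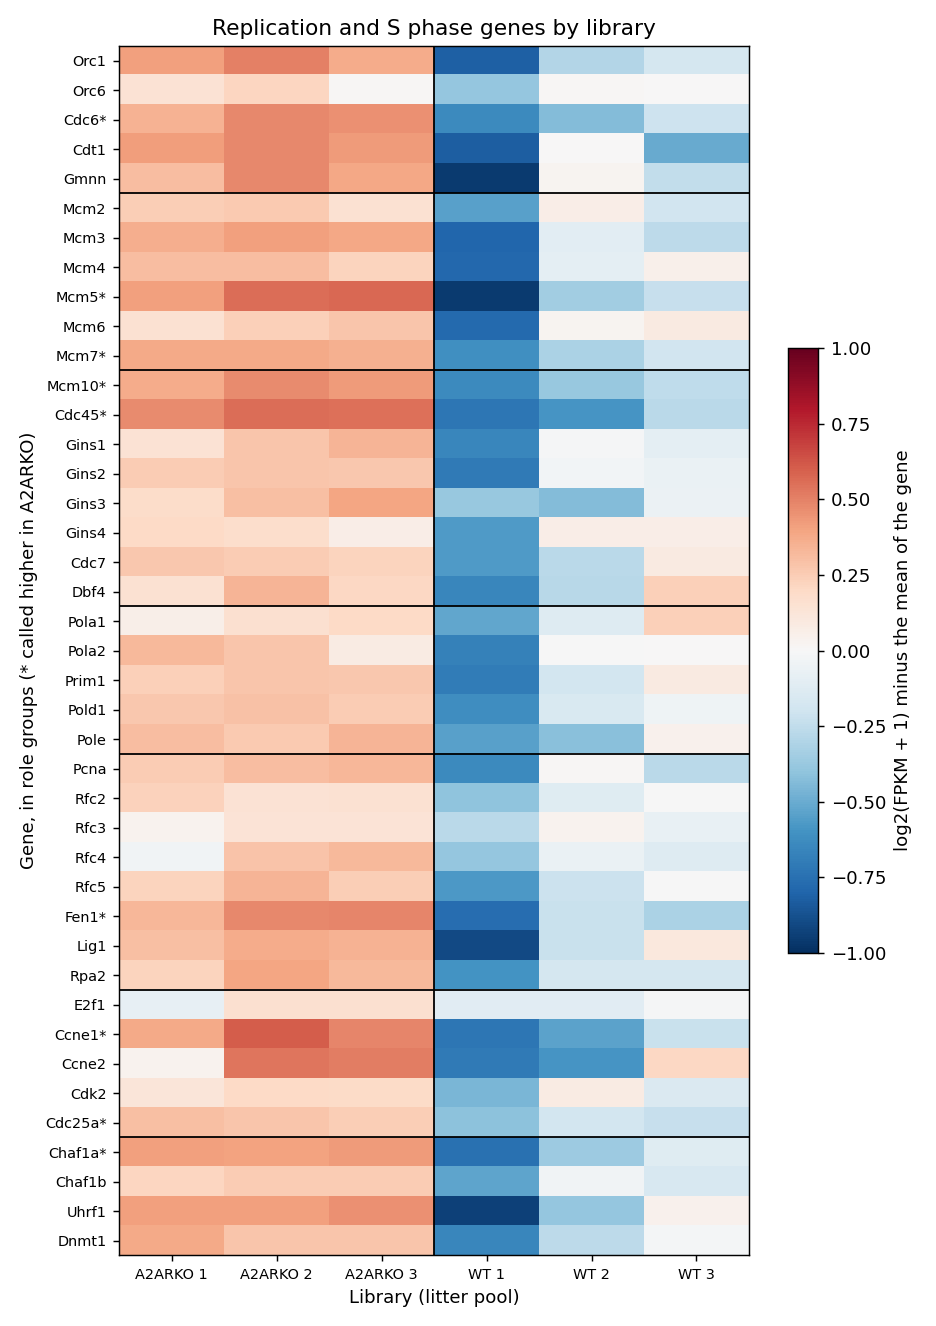
Level of the 41 tested genes in each litter pool, as log2(FPKM + 1) minus the mean of the gene over the 6 libraries (red above, blue below). Rows are grouped by role, with horizontal lines between groups, and an asterisk marks genes called higher in A2ARKO; WT replicate 1 is the lowest library in 40 of the 41 rows.

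Of the origin licensing genes, Cdc6, which loads the MCM helicase together with Cdt1, rose, and the other 4 did not pass. Cdc6 had 3.06, 3.44 and 3.37 FPKM in A2ARKO against 1.05, 1.36 and 1.76 FPKM in WT. Its mean was 3.29 ± 0.202 FPKM in A2ARKO and 1.39 ± 0.356 FPKM in WT (SD, n = 3 each), with a log2 fold change of 0.85 (SE 0.13, limma adjusted p = 0.027). The groups did not overlap. The call was lost with A2ARKO replicate 1, 2 or 3 left out (adjusted p values 0.0836, 0.134 and 0.123) and without WT replicate 2 (0.0642).

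Cdt1 had 12.38, 12.97 and 12.42 FPKM in A2ARKO against 4.63, 8.99 and 6.04 FPKM in WT, the largest fold change of the licensing genes at 0.89 (SE 0.21, limma adjusted p = 0.0649). It passed only without WT replicate 2 (adjusted p = 0.024). Gmnn, which encodes the Cdt1 inhibitor geminin, had 8.9, 10.13 and 9.43 FPKM in A2ARKO against 3.12, 7.15 and 5.72 FPKM in WT. The licensing factor and its inhibitor therefore both lay above WT in every A2ARKO library, and neither was called. Orc1, the regulated large subunit of the origin recognition complex, had 2.34, 2.57 and 2.26 FPKM in A2ARKO against 0.43, 1.05 and 1.23 FPKM in WT. Its lowest value corresponds to about 61.8 reads. Orc1 missed the threshold at an adjusted p of 0.0544 and passed without WT replicate 1 (0.0282) and without WT replicate 3 (0.0435). Orc6, another subunit and the most abundant licensing transcript, had 16.82, 17.71 and 15.29 FPKM in A2ARKO against 11.32, 15.25 and 15.21 FPKM in WT. The groups of Orc6 nearly touch, and its fold change of 0.25 has a 95% interval of -0.08 to 0.58.

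The MCM2 to MCM7 subunits form 1 ring in equal parts. Mcm5 and Mcm7 rose and the other 4 of the 6 did not pass, although all 6 lay higher in every A2ARKO library than in any WT library. Mcm5 had 23.67, 26.32 and 26.64 FPKM in A2ARKO against 8.59, 13.6 and 14.87 FPKM in WT, a log2 fold change of 1.02 (SE 0.20, limma adjusted p = 0.0457). Mcm7 had 15.76, 15.71 and 15.45 FPKM in A2ARKO against 7.43, 9.35 and 10.26 FPKM in WT, a log2 fold change of 0.74 (SE 0.12, limma adjusted p = 0.0302). The A2ARKO values of Mcm7 lie closer together than its WT values. Both lost the call with A2ARKO replicate 1, 2 or 3 left out (adjusted p values 0.126, 0.178 and 0.17 for Mcm5 and 0.106, 0.139 and 0.127 for Mcm7) and without WT replicate 2 (0.0752 for Mcm5 and 0.064 for Mcm7).

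Mcm4, the most abundant subunit, had 26.95, 26.96 and 25.34 FPKM in A2ARKO against 12.15, 20.1 and 22.47 FPKM in WT (log2 fold change 0.55, limma adjusted p = 0.189). Mcm3 had 24.98, 25.73 and 25.29 FPKM in A2ARKO against 10.62, 17.77 and 15.77 FPKM in WT, and passed only without WT replicate 1 (adjusted p = 0.0279). For both, WT replicate 1 lay far below the other WT pools. Mcm6 and Mcm2 had the smallest fold changes of the ring, 0.44 and 0.45. Mcm6 had 21.91, 23.37 and 24 FPKM in A2ARKO against 11.02, 20.02 and 20.99 FPKM in WT, so that its lowest A2ARKO and highest WT values lie close together. Mcm2 had 11.75, 11.91 and 10.96 FPKM in A2ARKO against 6.37, 10.26 and 8.39 FPKM in WT. The subunits thus ranged from 11.5 FPKM (Mcm2) to 26.4 FPKM (Mcm4) in mean level in A2ARKO, and from 8.34 FPKM (Mcm2) to 18.2 FPKM (Mcm4) in WT.

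**Figure D3:**
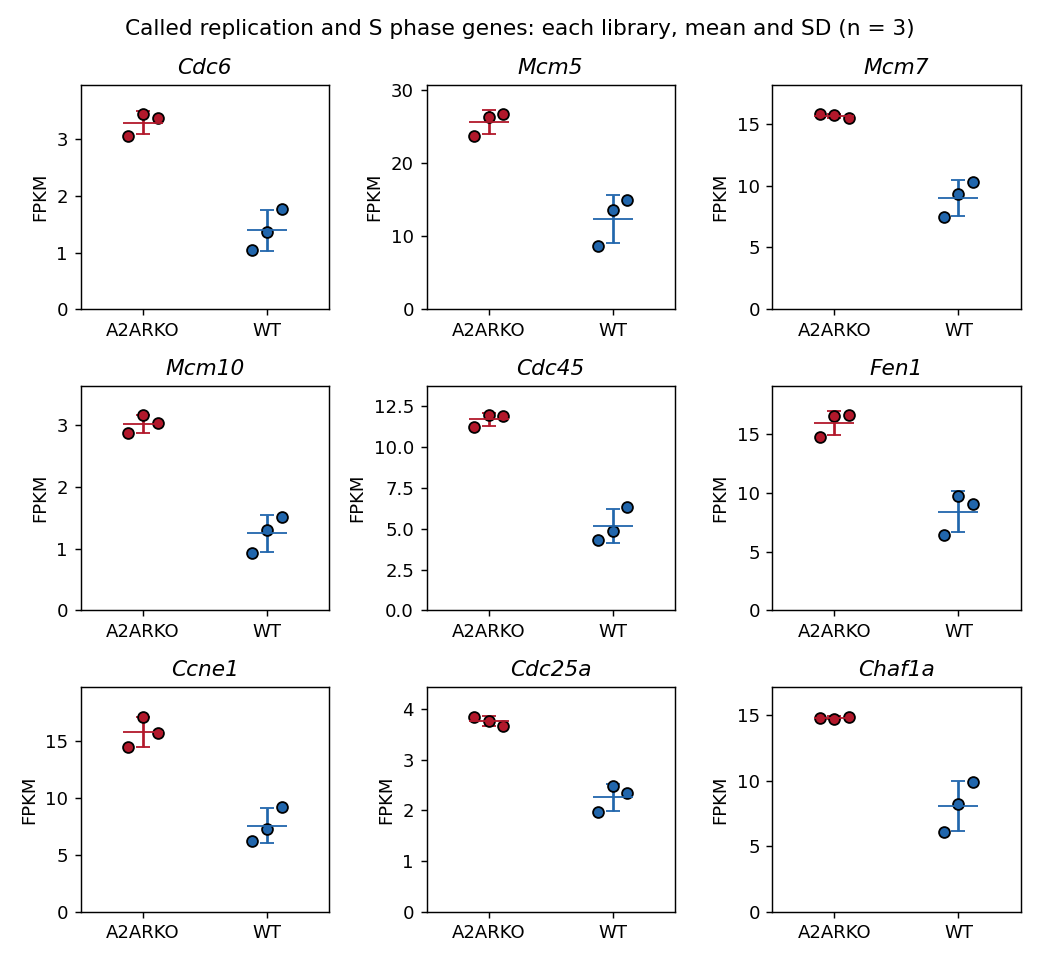
FPKM of the 9 genes called higher in A2ARKO, 1 panel per gene. Circles are litter pools, horizontal bars the mean and vertical bars the SD of 3 pools, and each FPKM axis starts at 0; in every panel the A2ARKO pools (red) lie above all WT pools (blue).

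Activation of the loaded helicase depends on Mcm10, Cdc45, the GINS subunits and the kinase Cdc7 with its activator Dbf4. Cdc45 and Mcm10 rose and 6 of the 8 did not pass. Cdc45, part of the active helicase, had the largest fold change of all 41 genes, with 11.21, 11.91 and 11.89 FPKM in A2ARKO against 4.31, 4.84 and 6.3 FPKM in WT. Its mean was 11.7 ± 0.399 FPKM in A2ARKO and 5.15 ± 1.03 FPKM in WT (SD, n = 3 each), with a log2 fold change of 1.06 (SE 0.13, limma adjusted p = 0.015). The gap between the groups was wider than the range within either. It kept the call without each WT library and lost it with A2ARKO replicate 1, 2 or 3 left out (adjusted p values 0.064, 0.0852 and 0.0806).

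Mcm10, which binds the helicase at initiation, had 2.87, 3.16 and 3.03 FPKM in A2ARKO against 0.93, 1.31 and 1.51 FPKM in WT, a log2 fold change of 0.85 (SE 0.12, limma adjusted p = 0.0228). On the unlogged scale its A2ARKO mean was 2.42 times the WT mean. Without A2ARKO replicates 1, 2 and 3 its adjusted p was 0.079, 0.123 and 0.113, and without WT replicate 2 it was 0.0553. Among the 4 GINS subunits, Gins3 had the largest fold change at 0.58, with 4.05, 4.49 and 4.84 FPKM in A2ARKO against 2.43, 2.29 and 3.27 FPKM in WT. It was the only gene of the 41 whose lowest library was not WT replicate 1, and it passed only without WT replicate 3 (adjusted p = 0.0255). Gins1 had 3.71, 4.16 and 4.39 FPKM in A2ARKO against 1.71, 3.22 and 2.98 FPKM in WT. Gins2 had 5.95, 6.07 and 6.02 FPKM in A2ARKO against 2.58, 4.72 and 4.58 FPKM in WT. Neither passed, and 67.3% of the annotated Gins2 exon bases are shared with Gse1 on the opposite strand, so its reads may not all be its own. Gse1 itself had 9.68, 7.79 and 7.03 FPKM in A2ARKO against 5.27, 4.99 and 5.46 FPKM in WT, higher without overlap. The part of Gse1 reads in the Gins2 values was not tested. Gins4, the most abundant of these genes, had 20.53, 20.13 and 18.58 FPKM in A2ARKO against 11.64, 18.65 and 18.6 FPKM in WT, and its groups overlapped. The kinase gene Cdc7 had 2.95, 2.89 and 2.81 FPKM in A2ARKO against 1.21, 1.72 and 2.48 FPKM in WT, and passed only without WT replicate 3 (adjusted p = 0.0425). Dbf4 had 3.53, 4.15 and 3.71 FPKM in A2ARKO against 1.59, 2.37 and 3.8 FPKM in WT, where replicate 3 reached the A2ARKO range.

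None of the 5 polymerase and primase genes was called by limma. Of the 5, 3 had an unadjusted p below 0.05 (over all genes tested 2863 of 11595, in either direction). Pole, the catalytic subunit of the leading strand polymerase epsilon, had the largest fold change, 0.61 (SE 0.16, adjusted p = 0.089). Its values were 3.72, 3.57 and 3.81 FPKM in A2ARKO against 1.61, 1.85 and 2.92 FPKM in WT, and it passed without WT replicate 3 (adjusted p = 0.0178). Pold1, the catalytic subunit of polymerase delta, had 8.82, 8.96 and 8.73 FPKM in A2ARKO against 4.31, 6.33 and 6.89 FPKM in WT. Both thus lay above WT without overlap. Pola2, of the polymerase alpha complex that starts each new strand, was the most abundant of these genes, at 10.32, 9.97 and 8.62 FPKM in A2ARKO against 4.67, 8.02 and 8.08 FPKM in WT. Prim1, the primase subunit, had 5.08, 5.26 and 5.24 FPKM in A2ARKO against 2.19, 3.56 and 4.5 FPKM in WT. Pola1, the catalytic subunit of polymerase alpha, had 2.96, 3.25 and 3.38 FPKM in A2ARKO against 1.66, 2.48 and 3.49 FPKM in WT, so WT replicate 3 was its highest library. Its fold change of 0.28 has a 95% interval of -0.20 to 0.75.

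Of the clamp, clamp loader and lagging strand genes, Fen1 rose and 7 of 8 did not pass. Fen1, the nuclease that trims the flaps between lagging strand fragments, had 14.75, 16.5 and 16.58 FPKM in A2ARKO against 6.41, 9.74 and 9.07 FPKM in WT. The log2 fold change was 0.87 (SE 0.15, limma adjusted p = 0.0381). Without A2ARKO replicates 1, 2 and 3 the adjusted p was 0.107, 0.163 and 0.157, and without WT replicate 2 it was 0.0532. An antisense gene, Gm10143, shares 78.8% of the Fen1 exon bases and was listed at 0.06 FPKM or less. Tmem258, also on the opposite strand, shares 5.37% of them and lay between 32.61 and 39.62 FPKM. The part of Tmem258 reads in the Fen1 values was not tested. Pcna, the sliding clamp and the most abundant of this group, had 22.3, 23.28 and 23.7 FPKM in A2ARKO against 11.59, 18.69 and 15.22 FPKM in WT (log2 fold change 0.60, adjusted p = 0.0948). Its pseudogenes Pcna-ps1 and Pcna-ps2 were at 0.29 FPKM or less in every library. The groups of Pcna did not overlap, but it was not called in any fit with 1 library left out.

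Lig1, which seals the fragments, had 14.44, 15.22 and 14.98 FPKM in A2ARKO against 5.69, 9.72 and 12.51 FPKM in WT. Rpa2, of the complex that coats single strands, had 10.29, 11.72 and 11.11 FPKM in A2ARKO against 5.39, 7.54 and 7.53 FPKM in WT, and passed only without WT replicate 1 (adjusted p = 0.0367). Each lay higher in every A2ARKO pool than in any WT pool. Of the clamp loader subunits, Rfc5 had 4.53, 5 and 4.62 FPKM in A2ARKO against 2.18, 3.08 and 3.72 FPKM in WT. Rfc4 had 7.85, 10.07 and 10.36 FPKM in A2ARKO against 5.92, 7.66 and 7.3 FPKM in WT. Rfc2 had 6.27, 5.87 and 5.91 FPKM in A2ARKO against 3.69, 4.7 and 5.18 FPKM in WT. The fold changes of these 3 were 0.54, 0.39 and 0.35, and none passed (unadjusted p of 0.0132, 0.0313 and 0.0246). Rfc3 showed the smallest fold change of the group, 0.21, with a tie of 4.37 FPKM between A2ARKO replicate 1 and WT replicate 2.

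Regulators of S phase entry ranged from the smallest fold change of the 41 genes to one of the largest. Ccne1 and Cdc25a rose and 3 of the 5 tested genes did not pass. Ccne1, a cyclin E that activates Cdk2, had 14.5, 17.2 and 15.79 FPKM in A2ARKO against 6.25, 7.25 and 9.26 FPKM in WT. Its log2 fold change was 0.98 (SE 0.15, limma adjusted p = 0.0242). Cdc25a, the phosphatase that removes inhibitory phosphates from Cdk2, had 3.85, 3.77 and 3.66 FPKM in A2ARKO against 1.96, 2.47 and 2.35 FPKM in WT. The change of Cdc25a was smaller, 0.55 (SE 0.09, limma adjusted p = 0.0346), with little spread in either group. Both lost the call with A2ARKO replicate 1, 2 or 3 left out (adjusted p values 0.0741, 0.116 and 0.113 for Ccne1 and 0.12, 0.168 and 0.146 for Cdc25a) and without WT replicate 2 (0.0639 for Ccne1 and 0.0553 for Cdc25a).

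Ccne2, the other cyclin E gene, had 4.44, 6.67 and 6.56 FPKM in A2ARKO against 2.25, 2.53 and 5.12 FPKM in WT, with overlap, and passed only without WT replicate 3 (adjusted p = 0.0439). Cdk2, their kinase partner, had 15.75, 16.74 and 16.65 FPKM in A2ARKO against 10.22, 15.33 and 12.98 FPKM in WT. Its fold change of 0.34 has a 95% interval of -0.01 to 0.70. E2f1, the first of the activating E2F factors, had 12.02, 14.38 and 14.44 FPKM in A2ARKO against 11.74, 11.77 and 12.66 FPKM in WT, the smallest fold change of the 41 at 0.16 (95% interval -0.08 to 0.39). WT replicate 1, the lowest library for most of these genes, did not stand apart for E2f1. E2f2 was below the filter, at 0.66, 0.93 and 1.01 FPKM in A2ARKO against 0.62, 1.43 and 0.55 FPKM in WT. Its means were the same to 3 digits, 0.867 ± 0.183 FPKM in A2ARKO and 0.867 ± 0.489 FPKM in WT (SD, n = 3 each).

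Among the genes that copy chromatin, Chaf1a rose and 3 of 4 did not pass, with no overlap between the groups in any. Chaf1a, the large subunit of the factor that places histones behind the fork, had 14.8, 14.68 and 14.9 FPKM in A2ARKO against 6.06, 8.22 and 9.89 FPKM in WT. The log2 fold change was 0.82 (SE 0.16, limma adjusted p = 0.0459), and 52.5% of its annotated exon bases are shared with Ubxn6 on the opposite strand, which lay between 7.12 and 8.95 FPKM in all 6 libraries. Without A2ARKO replicates 1, 2 and 3 its adjusted p was 0.142, 0.178 and 0.17, and without WT replicate 2 it was 0.0905. It also missed the threshold after quantile normalization, at 0.052. Chaf1b, its partner, had 3.83, 3.95 and 3.95 FPKM in A2ARKO against 1.89, 3.05 and 2.73 FPKM in WT. Uhrf1, which reads hemimethylated DNA behind the fork, had 13.3, 13.32 and 13.81 FPKM in A2ARKO against 4.65, 7.22 and 10.08 FPKM in WT (log2 fold change 0.85, adjusted p = 0.0948). Dnmt1, the methyltransferase that Uhrf1 recruits, was the most abundant, at 27.98, 25.94 and 25.98 FPKM in A2ARKO against 13.17, 17.53 and 20.91 FPKM in WT. Uhrf1 and Dnmt1 passed only without WT replicate 3 (adjusted p of 0.0333 and 0.0432).

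**Figure D4:**
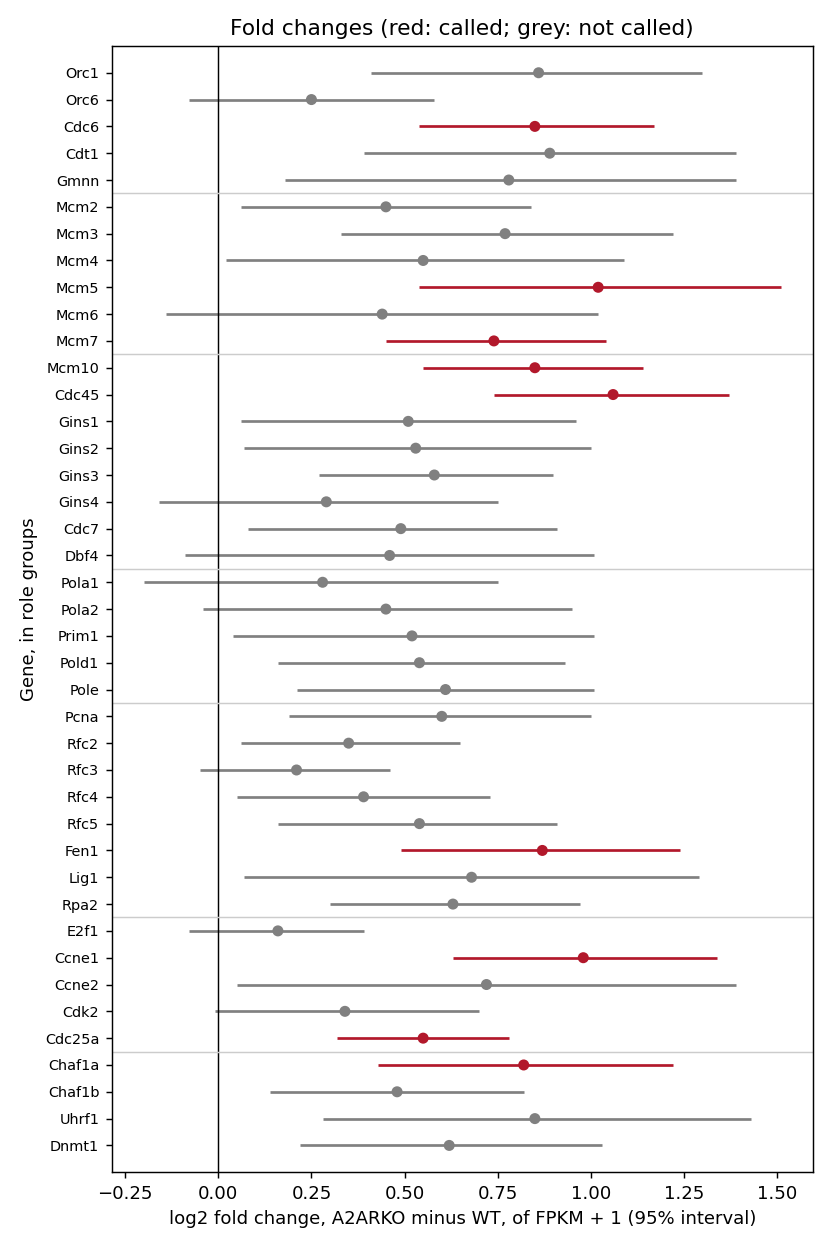
Log2 fold changes of FPKM + 1, A2ARKO minus WT, for the 41 tested genes by role (points), with 95% limma intervals (lines). All points lie above 0, from 0.16 for E2f1 to 1.06 for Cdc45; red marks the 9 called genes.

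None of the 42 genes lies close to the deleted locus. The 42 genes lie on 15 chromosomes, and the pair on chromosome 10 with Adora2a, Prim1 and Cdk2, lie 52.7 and 53.4 megabases from it.

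Genes around the replication machinery were described in 6 further lists. For comparison, 3.31% of all genes tested rose and 1.77% fell. Of 31 tested genes of other fork and origin functions, 3 rose (9.68%) and 28 did not pass, with a median log2 fold change of 0.34. Those called were the clamp loader gene Chtf18, the ribonuclease H subunit gene Rnaseh2c and the helicase gene Recql4, at 0.91, 0.70 and 0.63. The origin subunits Orc2, Orc3, Orc4 and Orc5, named after their values were seen, had fold changes of 0.15, 0.02, -0.22 and -0.01. Their groups overlapped in all 4. Chtf18, Rnaseh2c and Recql4 lost the call without A2ARKO replicates 1, 2 and 3 (lowest adjusted p 0.0751), Chtf18 and Recql4 without WT replicate 2 (0.0855 and 0.0742), and Recql4 without WT replicate 1 (0.0517). Rescaling to the same sum ended all 3 calls (0.105, 0.122 and 0.127), and testing with no filter ended those of Chtf18 and Recql4 (0.0937 and 0.111).

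Of 12 genes of deoxynucleotide supply, Rrm2 rose (8.33%) and 11 did not pass (median 0.53). Rrm2, the S phase subunit of ribonucleotide reductase, had 98.42, 121.35 and 98.31 FPKM in A2ARKO against 19.72, 19.18 and 33.42 FPKM in WT, a log2 fold change of 2.13 (SE 0.23, limma adjusted p = 0.0117). This exceeds the largest change of any of the 41 replication genes. It kept the call after rescaling to the same sum (adjusted p = 0.0194), with no filter (0.0315) and without each WT library, and lost it without A2ARKO replicates 1, 2 and 3 (0.0525, 0.064 and 0.059).

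Of 18 genes of the G1 cyclins and the E2F and RB families, Tfdp1 rose and 17 did not pass, with a median of 0.13. The share that rose, 5.56%, was near the 3.31% of all genes tested. Tfdp1, the DNA-binding partner of E2F factors, had 41.4, 41.98 and 39.76 FPKM in A2ARKO against 29.47, 31.34 and 28.9 FPKM in WT (log2 fold change 0.44, limma adjusted p = 0.0381). It lost the call with A2ARKO replicate 1, 2 or 3 left out (adjusted p values 0.123, 0.19 and 0.154), without WT replicate 2 (0.059) and without WT replicate 3 (0.0519), as well as after rescaling (0.261) and with no filter (0.0526). Rb1, encoding the retinoblastoma protein, had 2.86, 3.13 and 3.75 FPKM in A2ARKO against 2.76, 3.82 and 3.05 FPKM in WT, with a fold change of 0.01 (95% interval -0.31 to 0.34) whose sign changed with the scaling.

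Among 7 CDK inhibitor genes, which encode brakes on the cell cycle, Cdkn1a rose (14.3%), Cdkn1c fell and 5 did not pass. Cdkn1a, encoding p21, had 215.3, 234.24 and 258.17 FPKM in A2ARKO against 141.91, 145.85 and 140.29 FPKM in WT (log2 fold change 0.72, limma adjusted p = 0.0354). Cdkn1c, encoding p57, had 12.44, 12.65 and 13.4 FPKM in A2ARKO against 50.98, 84.79 and 28.54 FPKM in WT (log2 fold change -1.88, limma adjusted p = 0.0457). Genes of 2 inhibitors of the same family thus moved in opposite directions in the same libraries as the replication genes. Cdkn1b, also of that family, had 10.46, 9.5 and 8.63 FPKM in A2ARKO against 14.55, 13.06 and 18.86 FPKM in WT. It was lower without overlap, as were 14.9% of all genes tested, and did not pass (limma adjusted p = 0.0657). Cdkn1a and Cdkn1c lost the call without A2ARKO replicates 1, 2 and 3 (lowest adjusted p 0.0836 and 0.143). Without WT replicate 2 they lost it too (0.0691 and 0.0553). Cdkn1a also lost it without WT replicate 3 (0.0543) and Cdkn1c without WT replicate 1 (0.0643). After rescaling Cdkn1c kept its call (0.0302) and Cdkn1a lost it (0.112), as it did after quantile normalization (0.0549), and with no filter both lost it (0.101 for Cdkn1c and 0.0945 for Cdkn1a).

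Genes of the replication checkpoint and fork protection had no call by limma among 15 tested (7 at an unadjusted p below 0.05, median 0.32). Over all genes tested 2863 of 11595 had an unadjusted p below 0.05, in either direction. Exo1, an exonuclease of mismatch and break repair, had the smallest p of the 15 checkpoint and fork protection genes. It stood at 2, 1.98 and 2.06 FPKM in A2ARKO against 0.66, 0.81 and 1.3 FPKM in WT. The groups did not overlap, and the adjusted p was 0.0555. It passed only without WT replicate 3 (adjusted p of 0.0193). Of 26 genes of mitosis and G2 none was called by limma, and 17 had an unadjusted p below 0.05. The median fold change of the mitosis and G2 genes, 0.80, was above that of the replication genes. Cdk1 and Ube2c had the smallest p, with fold changes of 1.05 and 1.33 (adjusted p of 0.063 and 0.0797). The proliferation marker Mki67 had 21.12, 23.32 and 22.2 FPKM in A2ARKO against 9.98, 10.87 and 26.08 FPKM in WT. WT replicate 3 was its highest library, and without it Mki67 (adjusted p = 0.0117), Cdk1 (0.0163) and Ube2c (0.0167) passed.

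Replication and mitosis genes differed in where WT replicate 3 lay. As the median over genes of log2(FPKM + 1) minus the mean of the gene, replication genes stood at 0.27, 0.30 and 0.33 in A2ARKO replicates 1, 2 and 3 and at -0.64, -0.18 and -0.07 in WT replicates 1, 2 and 3. Mitosis and G2 genes stood at 0.29, 0.51 and 0.45 in A2ARKO and at -0.97, -0.59 and 0.27 in WT. WT replicate 3 was thus below all A2ARKO pools for replication genes and close to A2ARKO replicate 1 for mitosis genes. The difference between the lists was not tested. The median SD within WT was 0.649 for mitosis genes and 0.315 for replication genes, and within A2ARKO it was 0.0943 and 0.0599.

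The replication genes and the cartilage markers were also set side by side by library. In A2ARKO replicates 1, 2 and 3, chondrocyte marker sums of 2239, 4485 and 6279 FPKM stood beside median deviations of the 41 replication genes from their mean over all libraries of 0.27, 0.30 and 0.33 on the log2(FPKM + 1) scale. In WT replicates 1, 2 and 3, sums of 25562, 1337 and 487.5 FPKM stood beside median deviations of -0.64, -0.18 and -0.07. Both measures thus had the same order within A2ARKO and opposite orders within WT. With 3 pools per genotype no correlation was computed, and the part of cartilage marker content in the replication genes' levels was not tested.

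**Figure D5:**
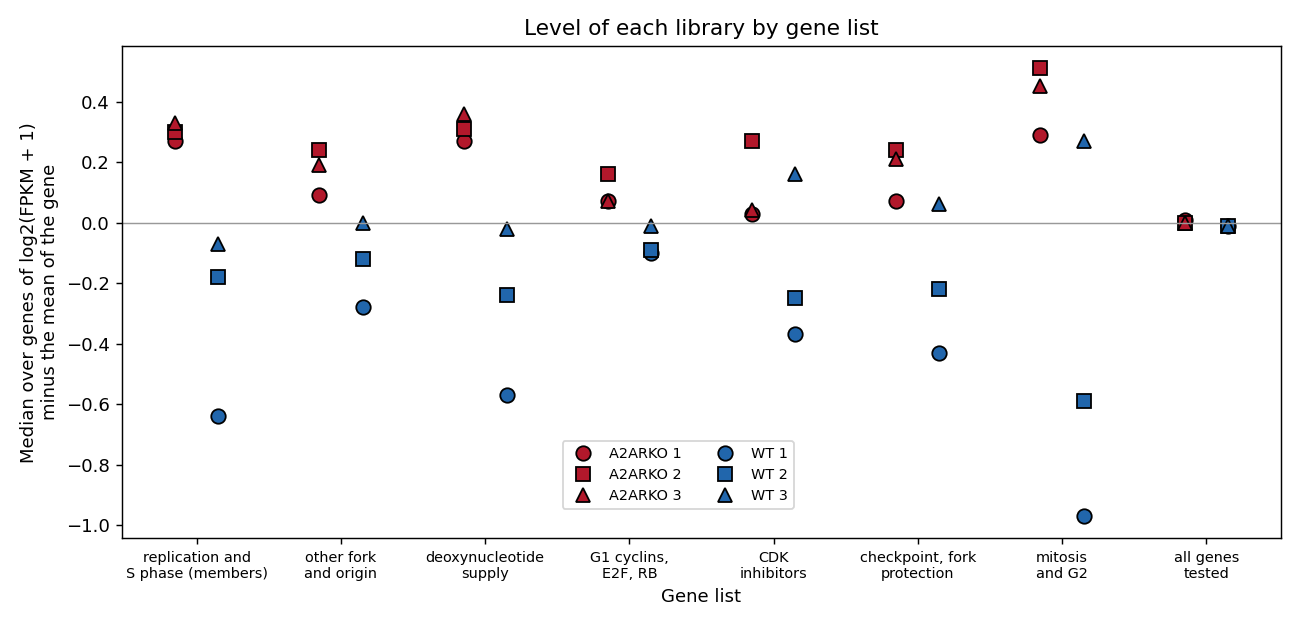
Median over the genes of each list of log2(FPKM + 1) minus the mean of the gene, for each litter pool (A2ARKO red, left; WT blue, right; symbols give the replicate). For the replication and S phase genes all A2ARKO pools lie above all WT pools, and for mitosis and G2 genes WT replicate 3 lies at 0.27, next to A2ARKO replicate 1 at 0.29.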

How the data were processed

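RNA of 6 litter pools, 3 A2ARKO and 3 WT, was compared. The authors deposited 1 table of FPKM, rounded to 2 decimals. HTSeq and the build mm10 are named in the submitters' processing notes. No source used here gives the aligner, annotation, gene lengths or strand setting, so reads of overlapping genes cannot be told apart. Columns were matched to samples by title.

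Genes with 1 FPKM or more in at least 3 libraries (11595 of 47480) were fitted on log2(FPKM + 1) with limma 3.58.1 (eBayes with trend, two-sided, no block) in R 4.3.3. The fit was checked on simulated data with independent noise of the same SD in both groups. In these pools WT varied more than A2ARKO, so the check does not cover that difference. Fold changes on this scale understate those of low genes. FPKM carry no counting error of their own. Depth came from the steps between FPKM times exon length of genes of at most 150 nt (99.6% or more of values within 0.1 of a whole read), with GENCODE M21 lengths on GRCm38. Read counts from it are approximate. Libraries of 1 genotype differed by more than sampling noise (median chi-square at least 17 times it) and were counted separately.

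The genes and lists were chosen with earlier results of these data known. Values in every library are given for called genes and, per role, for the gene with the largest change and the highest mean, and also for most of the others. From each related list, up to 4 called genes are named or, with none called, the 2 with the smallest p, besides Cdkn1a, Rb1 and Mki67. A gene this rule names is not reported here. The remaining Orc genes and Cdkn1b were named after their values were seen.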

Additional observations from a re-analysis of the deposited data

How the results depend on the processing

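All 41 tested replication genes had a log2 fold change above 0, and above the median of all genes, in each of the 11 alternatives, and the median of the 41 ranged from 0.40 to 0.70. For the 35 whose groups do not overlap, leaving out a library could not have turned the sign. The number called, 9 by limma, was 1 without a filter, 0 when libraries were rescaled to equal sums (15 at an unadjusted p below 0.05) and 0 to 16 with each library left out. It was 9 at a pseudocount of 0.1 and after quantile normalization, where Orc1 replaced Chaf1a. Over all genes, 589 were called, 213 without a filter, 345 when rescaled, and 50 to 900 with a library left out. Of these calls 65.2% were higher in A2ARKO, against 50.7% after rescaling and 53.8% after quantile normalization. The cause was not tested. A replicate block left 2 genes called overall and 0 of the 41, and ended the call of every gene named from the related lists. Under the block 30 of the 41 kept an unadjusted limma p below 0.05, against 2110 of all 11595 genes in either direction. The labels do not say whether replicate numbers pair the samples. Same-numbered pools correlated in their deviations from the group mean at -0.52, -0.33 and -0.39. Deviations from the mean of so few pools depend on each other, so these values cannot tell whether a batch or day was shared. Rb1 changed sign after rescaling (-0.09), after quantile normalization (-0.0047) and with libraries left out, where it ranged from -0.07 to 0.12. The lowest value of a tested replication gene, Orc1 in WT replicate 1, rests on about 61.8 reads.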
